A study of Rattus norvegicus with 2 samples.

Results

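Endothelial cells line every blood vessel of the kidney, from the renal artery to the fenestrated capillaries of the glomerulus and the peritubular network. A set of 10 genes that mark these cells was followed through 1 comparison of kidney RNA: Pecam1, Cdh5, Kdr, Flt1, Tek, Tie1, Emcn, Plvap, Vwf and Nos3. The set is a list of names, with no threshold on measured values. Spots were assigned to them where the accession printed for a spot belongs to the gene in RefSeq. This gave 12 probes in 21 spots for 9 of the 10 genes, out of 13435 genes named on the arrays. No probe was assigned to Vwf, which is not analysed here.

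The RNA came from whole kidneys of female PCK rats, which carry a mutation of Pkhd1 and develop polycystic kidneys. All animals were of this strain, so nothing below compares a cystic with a normal kidney. Pioglitazone, a drug that activates the nuclear receptor PPAR-gamma, was given once a day by gavage at 10 mg/kg to the treated group, starting at 4 weeks of age and ending at 20 weeks. The vehicle group was given 0.5% DMSO over the same weeks. Kidney RNA was pooled within each group, from 5 females by one passage of the labels and from 3 rats by another, and each pool was read on 1 one-colour (Cy3) array. There is therefore no replicate of either group, no p-value was computed, and every difference compares these 2 pools.

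The endothelium is a small part of kidney tissue, and its identity rests on a few receptor systems. VEGF, made largely by podocytes and tubular cells, signals through Kdr and is bound by Flt1, which acts in part as a decoy. Angiopoietins signal through Tek, which is modulated by Tie1. Cdh5 and Pecam1 hold neighbouring cells together, Emcn and Plvap belong to the surface and the fenestrae of capillaries, and Nos3 makes nitric oxide, which relaxes the vessel wall.

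The arrays gave a comparable readout. Of 43379 spots that are not controls, 71.8% were well above background with vehicle and 73.1% with pioglitazone, and 0 were saturated. All 7 proximal tubule genes looked up as a check of the tissue, such as the endocytic receptors Lrp2 and Cubn, were well above background on both arrays. Signals below are the processed spot intensity as deposited. Differences are pioglitazone minus vehicle on the log2 scale, with each array set to its own 75th percentile, which took out an offset of 0.082 between the arrays. Each difference has a technical error, built from the errors that the feature extraction software reports for its spots on both arrays; it contains no variation between animals. Its median over the 10484 measured genes was 0.20. It was almost the same for bright genes, at 0.204 for both Kdr and Emcn. For such genes 2 times this error acts as a fixed fold limit. It was not reduced for replicate spots, and Nos3, with 10 spots, was also at 0.204. A gene counted as measured when its brightest probe was well above background on both arrays, and all 9 endothelial genes with a probe met this. A signal depends on the probe as well as on the amount of RNA, so the signals of different genes are not ranked. In RNA of a whole kidney, fewer endothelial cells and less of a transcript per cell cannot be told apart.

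None of the 9 endothelial genes reached a 1.5-fold difference in either direction, a limit that 2.72% of all measured genes passed, 0.839% as higher and 1.88% as lower. With the further demand of 2 times the technical error 2.52% of all genes passed, and 0.448% reached 2-fold. The median difference of the endothelial genes was 0.001, against 0.03 over all measured genes, with 5 genes above 0 and 4 below. Differences above 0 made up 55.6% of the endothelial genes and 56.2% of all measured genes. The differences ran from -0.23 for Plvap to 0.37 for Cdh5. None exceeded 2 times its technical error, as 5.61% of all measured genes did, and 5 of the 9 lay within 0.1 of 0, as did 41.7% of all measured genes. At these shares a set of this size would hold few or no genes past either limit, so the counts do not set the endothelial genes apart from the other genes on the arrays. At a smaller limit of 0.32 on the log2 scale, 1 endothelial gene, Cdh5, counted as higher and 0 as lower. Of all measured genes 13.0% passed that limit, 5.01% as higher and 7.98% as lower.

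**Figure D1:**
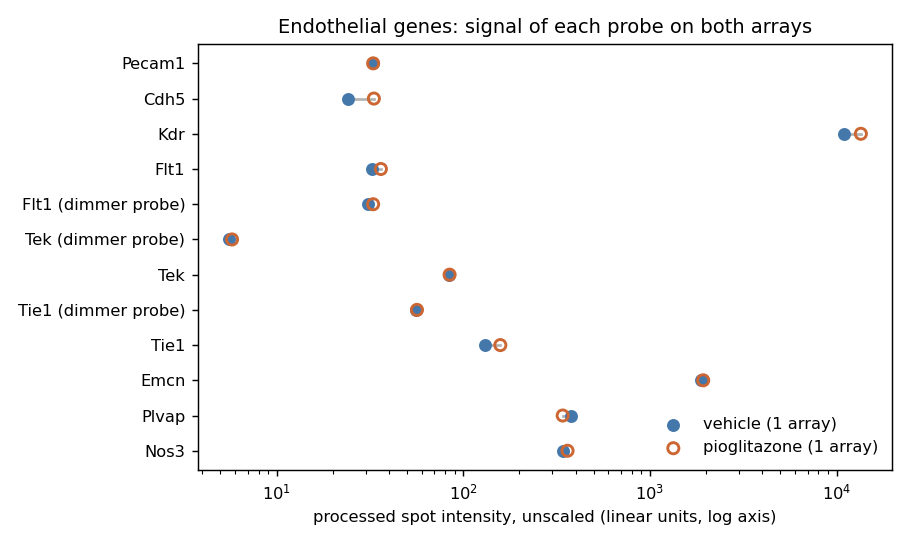
Processed spot intensity (log axis, unscaled) of each probe of the endothelial genes on the vehicle array (filled) and the pioglitazone array (open), 1 array per group; Nos3 is a mean of 10 spots. The paired symbols overlap for most probes, and the visible gaps are those of Cdh5 (24.2 and 33.2), Kdr (11000 and 13500), Tie1 (131 and 158) and Plvap (379 and 341).

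The sequences before the annotated start of 3 of these genes differ in whether they hold the letters TATAAA. RefSeq promoter sequence was matched for 6 of the 10 genes, Kdr, Flt1, Tie1, Emcn, Plvap and Nos3, in the GRCr8 build, while the arrays are annotated on another build. The 250 bases before the annotated start are shown for both VEGF receptors, Kdr and Flt1, and for Plvap, the gene with the lowest difference. They lie at chr14:32571813-32572062 on the plus strand for Kdr, chr12:12333180-12333429 on the plus strand for Flt1 and chr16:18231280-18231529 on the minus strand for Plvap. Capitals mark the letters GGAA, the core bound by ETS factors, or TTCC, which is GGAA on the other strand, and the TATA box letters TATAAA:
Kdr: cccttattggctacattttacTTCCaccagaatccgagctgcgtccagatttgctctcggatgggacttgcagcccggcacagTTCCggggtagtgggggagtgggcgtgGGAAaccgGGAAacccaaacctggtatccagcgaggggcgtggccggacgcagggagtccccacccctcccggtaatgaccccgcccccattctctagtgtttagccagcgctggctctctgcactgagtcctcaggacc
Flt1: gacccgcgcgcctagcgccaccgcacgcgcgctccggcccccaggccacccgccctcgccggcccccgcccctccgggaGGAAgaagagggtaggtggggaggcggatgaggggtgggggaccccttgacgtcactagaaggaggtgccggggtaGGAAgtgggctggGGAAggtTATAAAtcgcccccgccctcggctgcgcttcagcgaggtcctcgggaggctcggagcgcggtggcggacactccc
Plvap: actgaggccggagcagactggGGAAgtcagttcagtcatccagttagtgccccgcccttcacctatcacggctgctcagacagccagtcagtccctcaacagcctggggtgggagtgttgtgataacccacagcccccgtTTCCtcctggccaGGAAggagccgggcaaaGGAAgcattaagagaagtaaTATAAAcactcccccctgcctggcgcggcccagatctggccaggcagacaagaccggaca

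The letters TATAAA, searched on both strands, were found in Flt1 and Plvap alone among the 6 promoters, beginning 75 and 60 bases before the annotated start, and in 12.9% of all 33469 promoter windows of this length. GGAA on either strand was found in all 6 promoters, 3 times in Flt1, 4 times in Kdr, Tie1, Plvap and Nos3 and 6 times in Emcn. This is a short and common motif that 93.2% of all windows hold, with a median of 3 matches. The SP1 motif GGGCGG was found in 5 of the 6, all but Emcn, against 30.5% of all windows. The letters GATA were found in 5 of the 6, all but Flt1, against 55.9%. The AP-1 motif TGANTCA was found in 0 of the 6 and in 6.34% of all windows. No motif contains the letters of another, and the matches describe sequence only.

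Among the adhesion genes, Cdh5, which encodes VE-cadherin of the endothelial adherens junction, had the highest difference of the set. Its single spot read 24.2 with vehicle and 33.2 with pioglitazone, a difference of 0.37 with a technical error of 0.23, or 1.30-fold. The spot is dim, and with another background correction (normexp with an offset of 50) the difference was -0.02. Pecam1, which encodes the adhesion molecule CD31 and is also made by platelets and leukocytes, read 33.0 with vehicle and 32.9 with pioglitazone. Its difference was -0.09 with a technical error of 0.22.

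Of the VEGF receptors, Kdr was above 0 under every setting tried and Flt1 had no settled direction, both within 2 times their technical error. Kdr, the main signalling receptor for VEGF-A, gave a bright spot of 11000 with vehicle and 13500 with pioglitazone. The difference was 0.21 with a technical error of 0.20, or 1.16-fold, and it stayed above 0 under all 10 alternative settings, between 0.16 and 0.30. All settings read the same spot again. Those on averaging of probes, flagged spots, dim probes and middle grid rows could hardly change Kdr and left it at 0.21. Flt1, the second receptor, was dim and was read by 2 probes. The brighter read 32.4 with vehicle and 36.2 with pioglitazone, a difference of 0.08, and the dimmer read 30.7 and 32.9, a difference of 0.02. With normexp correction Flt1 was at -0.10.

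The ligands and partners of these receptors lay around 0 as well. Vegfa, the ligand of both, was printed in 10 spots, which read from 768 to 848 with vehicle (median 803) and from 814 to 880 with pioglitazone (median 852). After scaling its difference was -0.003, with an SD of 0.03 between spots. Vegfb read 1270 with vehicle and 1460 with pioglitazone, a difference of 0.12, and Vegfc, which acts mainly on lymphatic vessels, read 1590 and 1520, a difference of -0.15. Pgf, placental growth factor, which binds Flt1, read 50.9 and 41.7 and had the lowest difference of the VEGF list at -0.37, with a technical error of 0.22. The co-receptor Nrp1 was at 0.03 and the lymphatic receptor Flt4 at 0.01. Nrp2, the other co-receptor, was well above background with pioglitazone alone, where it read 14.1 against 6.87. It has no measured difference. Over the 11 measured genes of the VEGF list the median was 0.007, with 6 above 0, 5 below and 0 past 1.5-fold, and with normexp correction the median was -0.105.

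The angiopoietin receptors showed no common direction. Tek, the receptor of the angiopoietins, read 83.5 with vehicle and 84.5 with pioglitazone on its brighter probe, a difference of -0.07 with a technical error of 0.21. Its other probe, at 5.59 and 5.77, was not well above background on either array and carries no value. Tie1, an orphan relative of Tek, read 131 with vehicle and 158 with pioglitazone on its brighter probe, a difference of 0.19 with a technical error of 0.21. Its dimmer probe read 55.8 and 56.5, a difference of -0.06. The probes of Tie1 therefore disagree in direction, and their mean was 0.06.

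The angiopoietins themselves lay on opposite sides of 0. Angpt1, the agonist of Tek made by perivascular cells, read 236 with vehicle and 198 with pioglitazone, a difference of -0.34 with a technical error of 0.20. Angpt2, made by endothelial cells as a context-dependent antagonist, was read by 3 probes, all above 0. The brightest read 8570 and 9740, a difference of 0.10, and the highest of the 3 was at 0.39. Neither ligand reached 1.5-fold or 2 times its technical error on the probe used. Ptprb, the phosphatase that acts on Tek, had no assigned probe.

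Of the capillary surface genes, Emcn was close to 0 and Plvap had the lowest difference of the set. Emcn, which encodes the sialomucin endomucin of capillaries and veins, read 1880 with vehicle and 1930 with pioglitazone, a difference of -0.04. Plvap, which forms the diaphragms of fenestrae in peritubular capillaries, read 379 with vehicle and 341 with pioglitazone. The difference was -0.23 with a technical error of 0.20, or 0.85-fold, and it stayed below 0 under all 10 alternative settings, between -0.25 and -0.15. As for Kdr, the settings read the same spot again. Those on averaging of probes, flagged spots, dim probes and middle grid rows left it at -0.23 or -0.24. Plvap and Pecam1 were the only genes of the set whose unscaled signal was lower with pioglitazone.

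Nos3, the endothelial nitric oxide synthase, was the best measured of the set because its probe was printed 10 times. The 10 spots read from 334 to 357 with vehicle (median 339) and from 329 to 386 with pioglitazone (median 365.5). The spots of both arrays overlapped. After scaling, 5 spots were above 0 and 5 below, between -0.12 and 0.13, and their mean was 0.001 with an SD of 0.08 between spots. The spots above 0 all lay in grid rows 77 to 169, where a spot in row 137 was at -0.036. All spots in rows 384 to 484 were below 0. The mean therefore averages regions with opposite signs, and an effect of position was not tested. Replicate spots share 1 pool of RNA, so the spread between them shows how spots differ within the arrays and not how animals vary. The median SD of such differences over 206 probes with at least 5 usable spots was 0.07, close to that of Nos3.

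The wider nitric oxide list also had its median near 0. The median over 13 measured genes was 0.001, with 7 above 0 and 6 below. The differences ran from -0.36 to 0.20, and 0 passed 1.5-fold on the probe used. Cav1, the caveolin that holds Nos3 inactive, read 123 with vehicle and 122 with pioglitazone on its brightest probe, at -0.09. Its 3 probes disagreed in direction, and the highest, at 0.59, was past 1.5-fold. Gucy1b1, a subunit of the nitric oxide receptor, was at -0.36, and Ddah2, which clears an endogenous inhibitor of the synthases, at -0.23. Arg2, which competes for the substrate arginine, was at 0.20 and Nostrin, a trafficking partner of Nos3, at 0.15. The neuronal and inducible synthases Nos1 and Nos2 were not well above background on either array.

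**Figure D2:**
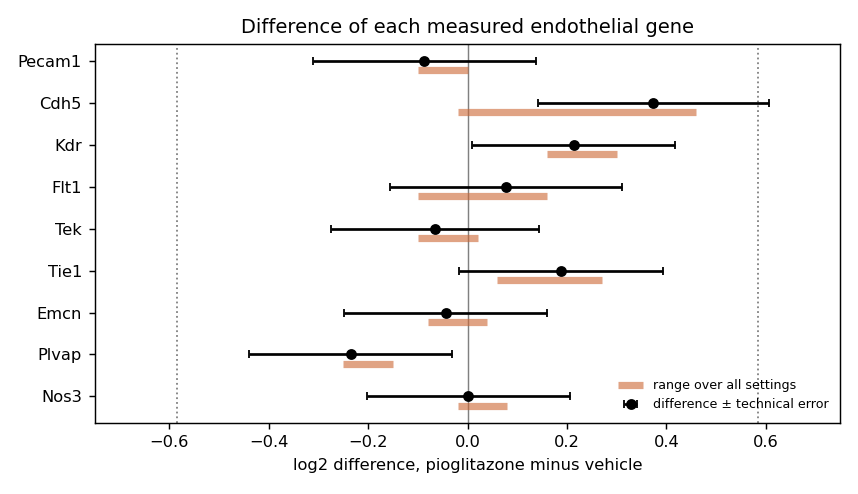
Log2 difference of each measured endothelial gene (point) with its technical error (bar), and the range over the reported setting and 10 alternatives (orange). Dotted lines mark 1.5-fold; all 9 points lie between them, and Cdh5 has the widest range, from -0.02 to 0.46.

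Because each list above holds few genes, 11 wider lists of genes tied to the endothelium were read in the same way. Not all of these genes are markers of it. Vegfa is made largely by podocytes and tubular cells, and Aqp1 and Notch3 are also read below as markers of other cell types. The values of these lists are therefore not values of the endothelium alone. Without the 10 genes themselves the 11 lists hold 142 genes, of which 123 had a probe and 111 were measured. Their median difference was -0.07, with 42 above 0 and 69 below, so that 37.8% were above 0 where 56.2% of all measured genes were. At 1.5-fold, 1 was higher and 2 were lower, or 2.70% of the 111 where 2.72% of all measured genes passed. With normexp correction 0 of them passed in either direction. Its offset of 50 is added to every signal and draws the differences of dim genes towards 0. For dim genes that count therefore cannot show whether a difference holds. At the smaller limit of 0.32, 2 were higher and 16 lower, or 1.80% and 14.4% of the 111, where 5.01% and 7.98% of all measured genes were. A difference over 2 times the technical error was seen in 6 of them, 5.41% against 5.61% of all measured genes.

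The 6 genes were Plaur, Sema3d, Edn1, Ptgs1, Ctnnd1 and Gja1. Plaur, the receptor of the protease urokinase, was the one higher: it read 50.3 with vehicle and 99.2 with pioglitazone, 0.90 with a technical error of 0.21. It was read from 1 spot, which lies in the middle rows of the grid and leaves no value when those rows are dropped, and with normexp correction it was at 0.35. Its ligand Plau, the urokinase itself, read 7730 and 6420 and was at -0.35. Sema3d, a guidance molecule of the lymphatic list, was dim, at 33.3 and 17.1, with -1.04 on its brighter probe and -0.55 on the other, and it was at -0.44 with normexp correction.

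Edn1, Ptgs1 and Gja1 were each printed in 10 spots and were lower with pioglitazone in every spot used. Edn1 encodes endothelin-1, a vasoconstrictor made by endothelial and collecting duct cells. Its 8 unflagged spots read from 62.4 to 75.7 with vehicle (median 66.6) and from 45.2 to 48.3 with pioglitazone (median 46.5), without overlap. The mean difference was -0.61 with an SD of 0.12 between spots, and 2 further spots carried an outlier flag. Edn1 was short of 1.5-fold under 5 of the 10 alternative settings, at -0.54 with those spots kept, -0.56 with median scaling, -0.53 without scaling, -0.58 with quantile normalization and -0.35 with normexp correction. Ednrb, an endothelin receptor of endothelial and tubular cells, read from 570 to 661 with vehicle and from 510 to 590 with pioglitazone, so the spots overlapped, and its mean difference was -0.25 with an SD of 0.07.

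Ptgs1 encodes cyclooxygenase 1, which starts the synthesis of prostacyclin and other prostanoids. Its spots read from 928 to 1070 with vehicle (median 1008) and from 661 to 771 with pioglitazone (median 724.5), without overlap, a mean difference of -0.55 with an SD of 0.06. Gja1, the gap junction gene connexin 43, read from 645 to 709 with vehicle (median 676) and from 461 to 517 with pioglitazone (median 490.5), again without overlap, a mean difference of -0.55 with an SD of 0.06. Ctnnd1, the catenin p120 that stabilises VE-cadherin, read 80.0 and 57.3 on its brighter probe, at -0.56, and -0.26 on the other. These genes are expressed in other kidney cells too, so their values are not values of the endothelium alone.

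**Figure D3:**
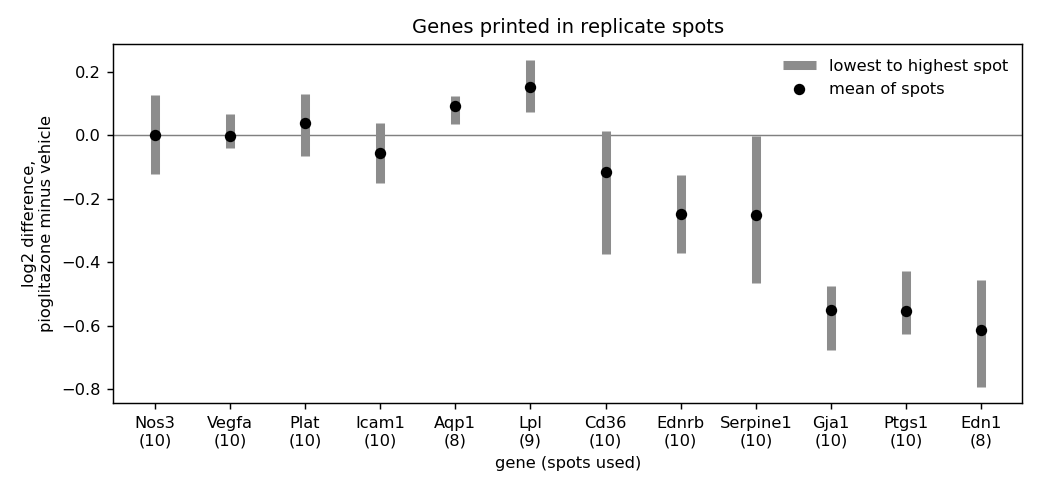
Log2 difference between the arrays for some genes of the endothelial and other cell type lists that were printed in replicate spots: the bar spans the lowest to the highest spot, the point is the mean, and the number of spots used is in brackets. Nos3 and Vegfa straddle 0, while all spots of Gja1, Ptgs1 and Edn1 lie at or below -0.43.

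The remaining lists showed small shifts. Where 56.2% of all measured genes were above 0, all 6 measured genes of the leukocyte adhesion list were below 0. This list had the lowest median, -0.26, and 0 of its genes passed 1.5-fold. With normexp correction its median was -0.123 and was no longer the lowest, next to -0.125 for the lymphatic list. Glycam1, a selectin ligand, was at -0.40, Lgals9 at -0.28 and the endothelial selectin Sele at -0.23. Cd34, a sialomucin of endothelial and stromal cells, was at -0.43 but read only 11.7 and 9.18. Icam1 was at -0.06 as a mean of 10 spots, from -0.15 to 0.04. Selp and Madcam1 were not well above background on either array.

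Over 17 pan-endothelial genes the median was -0.09, and 8 were above 0. Cd93, a lectin-like receptor, was at -0.29. Eng, the TGF-beta co-receptor endoglin, was at 0.04, Esam at 0.06 and Erg, an ETS factor that maintains endothelial identity, at -0.22. The median of 18 transcription factors was -0.05, with Sox17 at -0.40, Lmo2 at -0.39, Sox7 at -0.27 and Hey2 at 0.29. For 11 Notch and arterial genes it was -0.08, with Dll1 at -0.30 and Jag1 at -0.23. In the haemostasis list the median was -0.11 over 13 genes. Thbd, the thrombomodulin of the vessel wall, was at 0.09, Plat, the tissue plasminogen activator, at 0.04 and F8 at -0.16.

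The 16 junction genes had their median at -0.03, with Cldn5, the claudin of tight endothelia, at 0.12, Icam2 at 0.17 and Tjp1 at -0.29, where its 4 probes were all below 0. The median of 17 glomerular and renal capillary genes was -0.04. Ehd3, a marker of glomerular capillaries, was at 0.18 and Igfbp5 at -0.26. Among its genes of lipid uptake, which include known PPAR-gamma targets, Lpl was at 0.15 as a mean of 9 spots but at -0.05 on its other probe, Cd36 at -0.12 over 10 spots, Fabp4 at -0.07 and Gpihbp1, which anchors Lpl to capillaries, at -0.51 from a dim spot of 21.8 and 16.2. For 7 lymphatic genes the median was -0.08, with Pdpn at 0.38, Ccl21 at -0.39 and Lyve1 at -0.16, while Prox1, the factor that defines lymphatic identity, was not well above background on either array. The 5 measured genes of the angiopoietin list had their median at -0.07.

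Cell types around or within the vessels were read from their own markers. Podocyte genes were above 0 in 8 of 8, where 56.2% of all measured genes were. Their median was 0.15, with a summed signal of 15700 with vehicle and 18700 with pioglitazone. The slit diaphragm gene Nphs1 was at 0.32. The proximal tubule genes were also above 0 in 7 of 7, with a median of 0.09. The median of 10 pericyte and smooth muscle genes was -0.03, with Pdgfrb at -0.002 and Myh11 at 0.07, and a summed signal of 23700 and 25400.

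Genes of blood-borne cells, of which platelets and leukocytes share some endothelial markers, lay lower, except those of platelets. The platelet genes Pf4, Gp1bb and Gp9 were at -0.10, 0.04 and 0.06, with a summed signal of 1120 and 1140, while Ppbp, Itgb3 and Gp5 were not well above background. Of all measured genes 56.2% were above 0. Macrophage genes were below 0 in 8 of 8, with a median of -0.35 and a summed signal of 14900 and 12400. Lymphocyte genes were below 0 in 7 of 7, with a median of -0.30 and a summed signal of 1490 and 1280. Erythroid genes were below 0 in 4 of 4, with a median of -0.51 and a summed signal of 7670 and 6770. The part of these cell types in the differences of Pecam1 and of the adhesion genes was not tested.

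The endothelial genes, by the same measure, had a summed signal of 13900 and 16500, in which Kdr is the main term. Without Kdr the sum was 2900 and 2980, which after scaling is a log2 ratio of -0.05. With Kdr that ratio was 0.16. It was 0.17 for the podocyte genes, where Podxl alone gave 10100 of the summed signal with vehicle, and 0.08 for the proximal tubule genes. For the pericyte and smooth muscle genes the ratio was 0.02, and Notch3 alone gave 16700 of the 23700 with vehicle. The ratio was -0.05 for the platelet, -0.35 for the macrophage, -0.30 for the lymphocyte and -0.26 for the erythroid genes. In the erythroid sum Slc4a1, at -0.03, gave 3810 of the 7670 with vehicle, while the median of that list was -0.51. Each ratio is weighted towards the brightest probes of its list, so it is not a measure of the amount of a cell type.

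**Figure D4:**
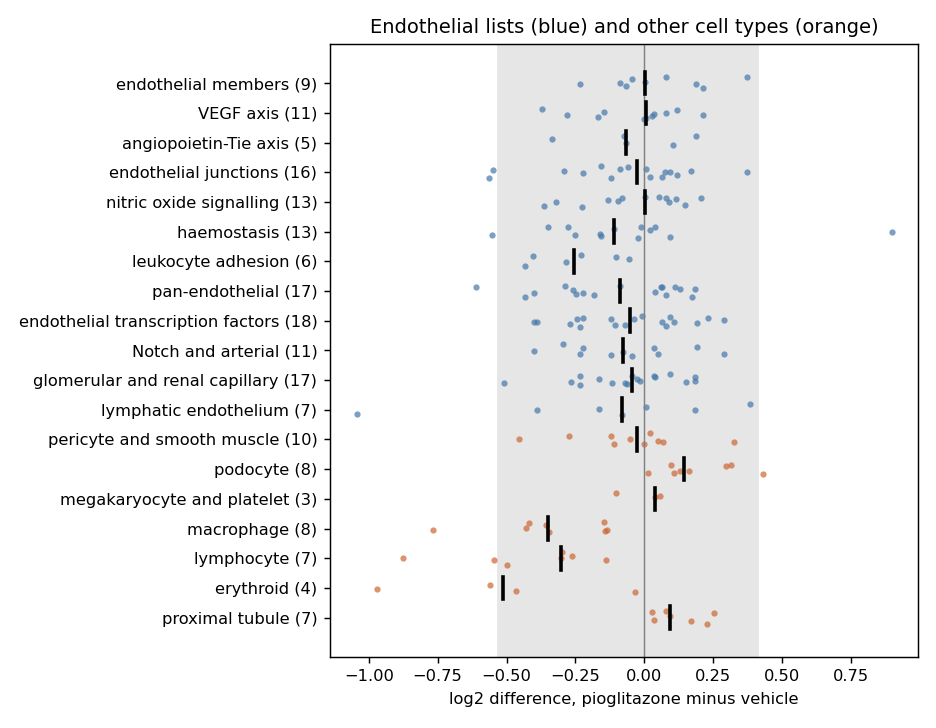
Log2 difference of every measured gene (points) in the endothelial lists (blue) and in lists of other cell types (orange), with the number measured in brackets and the median as a black line. The grey band holds the central 95% of all measured genes, from -0.53 to 0.41; all endothelial genes of the first row lie in it, and the macrophage, lymphocyte and erythroid medians lie below the endothelial ones.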

How the data were processed

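The deposited values are linear spot intensity from 2 arrays of 1 slide and 1 scan. Within an array, background was subtracted and spatial trends were removed by Agilent Feature Extraction 10.7.3.1, per the file headers. The deposited value table equals these intensity values at all 45018 features, with column medians of 46.8 for vehicle and 47.7 for pioglitazone, so its scale is linear and uncentred. From these, log2 values were taken here, each array's 75th percentile was subtracted, 149 spots with an outlier flag were left out and replicate spots were averaged. A gene took its brightest probe. Accessions were named through RefSeq genes of GRCr8, which named 16959 of 40998 probes (41.4%). The number of arrays limits the precision. The calculation was tested on simulated data.

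The members and lists were chosen with earlier results of these data known. The text names all members, in each list up to 4 genes with the largest difference and agreeing probes, genes past 1.5-fold and ligands or partners of the members. Further list genes, among them those printed in replicate spots, were named after their values were seen. Of the genes chosen by rule, some are given by counts alone. Motifs were searched in the RefSeq promoter table. Alternatives used limma 3.58.1 and numpy 2.4.6.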

Additional observations from a re-analysis of the deposited data

How the results depend on the processing

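With 1 array per group, a value counted as moved when it shifted by its technical error or more, and a count when it shifted over 1.5 times. Across 10 alternative settings the members' median ran from -0.019 with normexp to 0.084 without scaling, a setting that also took the median of all genes to 0.109, and it was 0.001 in the reported setting. Over members with a signal of at least 50, a choice made after seeing the data, it was -0.021. The signs of Kdr, Tie1 and Plvap held in all 10 settings. For Kdr and Plvap, each read from 1 spot, those on probe averaging, flagged spots, dim probes and middle grid rows could hardly change the value. For Tie1 no setting used the dimmer probe alone, which was at -0.06, so the settings do not resolve the disagreement of its probes. Pecam1 was below 0 in 9 and at 0 without scaling, and the signs of Cdh5, Flt1, Tek, Emcn and Nos3 did not hold. Cdh5 moved from 0.37 to -0.02 with normexp; the cause was not tested. No endothelial member passed 1.5-fold in any of the 10 settings, and 1 was higher at the smaller limit of 0.32. Of the other genes of the wider lists, 1 was higher and 2 were lower at 1.5-fold. The count higher was 0 with normexp, without the middle grid rows and at 2-fold, 2 at the smaller limit and 3 with no filter on dim probes. The count lower was 1 with median scaling, no scaling, quantile normalization, flagged spots kept and at 2-fold, 0 with normexp, 5 with no filter and 16 at the smaller limit. The normexp offset of 50 shrinks the differences of dim genes, so its counts of 0 cannot show whether those differences hold. Shifts of list medians were held to the technical error of a single gene, which a median near 0 seldom reaches; none passed it, though with normexp leukocyte adhesion went from -0.257 to -0.123 and the VEGF list from 0.007 to -0.105. No paired analysis was possible because a single array was read for either group. Dim signals limit Pecam1, Cdh5 and Flt1, all under 50.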
